A study of Arabidopsis thaliana with 15 samples.

Results

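The bri1-1D suppressor line was compared with its wild type, WS2, to find which transcripts remained unlike wild type in it. All arrays labelled with either genotype were taken, 6 of the 15 arrays of the series, with 3 arrays of each genotype. Probe sets were tested where the deposited log2 value was above 4 on at least 3 of the 15 arrays, which kept 15912 of the 22810 probe sets on the Affymetrix ATH1 array after its 64 controls were left out. WS2 is the Wassilewskija ecotype. The bri1-1D plants were bri1-5/bri1-1D seedlings in the same background, so they carried the bri1-5 allele of the brassinosteroid receptor gene BRI1 together with a dominant suppressor named after that gene. The other genotypes were bri1-5 alone and bri1-5 with the suppressors bak1-1D or brs1-1D. Every sample was RNA of whole seedlings grown for 5 days in the light on medium with 1% sucrose, and the submitters describe the 3 arrays of a genotype as biological replicates. No wild-type plants carrying bri1-1D without bri1-5 were analysed here, so the allele and its suppressor were compared with wild type as 1 combined genotype.

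Brassinosteroids are plant steroid hormones that promote cell expansion. They bind the receptor kinase BRI1 at the cell surface, which signals with its co-receptor BAK1 to relieve the inhibition of BZR1-type transcription factors. Those factors raise the expression of many genes of cell wall loosening and microtubules, and plants that lack BRI1 function are dwarfed. BRS1 is a secreted serine carboxypeptidase found, like BAK1, by its ability to suppress bri1-5 when its expression is raised.

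Medians of the 6 arrays over the tested probe sets lay between 6.752 and 6.807. Pearson correlations over the same probe sets were 0.99 to 0.9921 among bri1-1D arrays, 0.9935 to 0.9943 among WS2 arrays and 0.9781 to 0.9841 between the genotypes. The tissue check was limited, because 3 of the shoot and root marker genes had a named probe set. The light-harvesting gene LHCB4.1 lay between 12.58 and 12.83 on all 6 arrays. The root hair expansin EXPA18 read 5.67, 5.83 and 5.88 in WS2 and 5.43, 5.23 and 5.59 in bri1-1D, without overlap (log2 difference -0.38 ± 0.14, limma adjusted p = 0.0693). Every bri1-1D array was below every WS2 array for 16.7% of all tested probe sets and above for 18.9%. EXPA7 read 5.20, 5.49 and 5.00 in WS2 and 4.78, 4.67 and 5.02 in bri1-1D, with overlap (-0.41 ± 0.16, adjusted p = 0.0755). Neither passed the test, and the part of root hair cells in the results was not tested. In whole seedlings a lower value can come from fewer cells of a type or from less RNA per cell, and these cannot be told apart. The 3 arrays of a genotype limit the precision. The p-values weigh each difference against the spread between arrays of the same genotype. That spread was pooled over all genotypes of the series and moderated by limma across probe sets.

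The limma model over all 15 arrays called 3300 probe sets different between bri1-1D and WS2 at an adjusted p under 0.05, 20.7% of those tested. Of these, 1656 were higher (10.4%) and 1644 were lower (10.3%) in bri1-1D. Most of the differences were small, with a median size of 0.42 on the log2 scale, and 190 probe sets (1.19%) were called with at least a 2-fold difference. In that larger class 71 probe sets were higher and 119 were lower. The median log2 difference over all tested probe sets was 0.02. Called probe sets lay on every nuclear chromosome at similar rates, from 18.8% to 21.9%. Among the 8661 tested probe sets with a single listed gene, 1746 were called (20.2%), of which 1473 carry only a locus code and no gene symbol, so that the gene groups below rest on the symbols that remain.

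**Figure D1:**
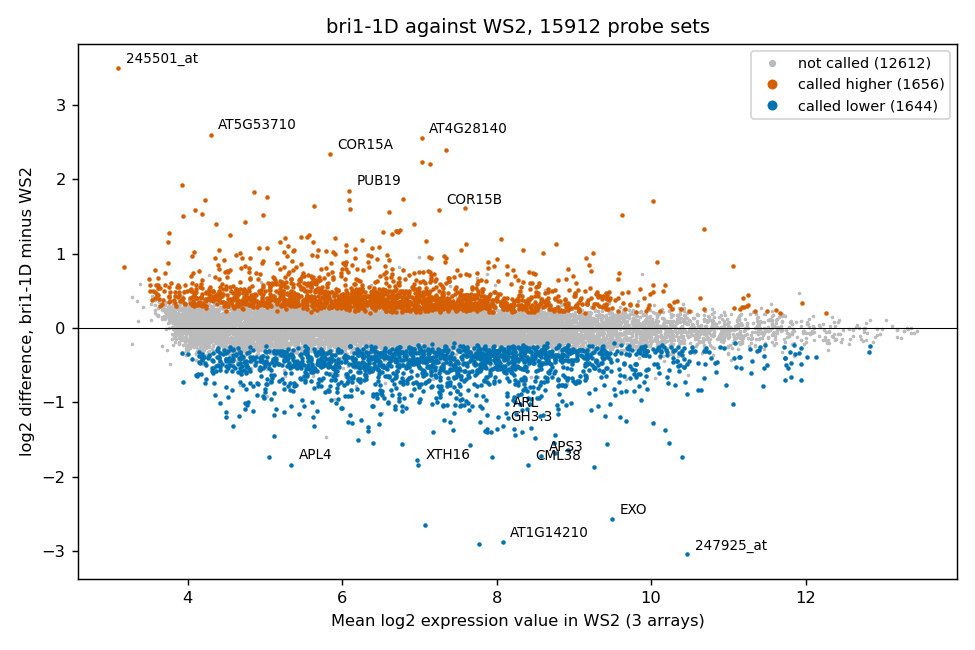
Each point is 1 of the 15912 tested probe sets, with the mean deposited log2 value of the 3 WS2 arrays on the horizontal axis and the log2 difference of bri1-1D minus WS2 on the vertical axis. Colour marks the 1656 probe sets called higher and the 1644 called lower at an adjusted p under 0.05; most called points lie close to 0, and the labelled genes lie beyond them.

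Genes that brassinosteroids are known to induce were lower in bri1-1D than in WS2. Of the 7 list members tested out of 32 listed, 6 were called lower and 0 higher, against 10.3% called lower over all tested probe sets, and their median log2 difference was -1.14. This and the other gene lists were chosen with earlier results of these data known, so their counts are a description with no test. EXO, a gene of cell expansion known as EXORDIUM, had log2 values of 9.35, 9.69 and 9.46 in WS2 and of 7.11, 6.73 and 6.95 in bri1-1D. The groups did not overlap, and EXO was 5.94-fold lower, a log2 difference of -2.57 ± 0.18 (SE, n = 3 and 3, limma adjusted p = 2.64e-07). XTH19, a xyloglucan-modifying enzyme, read 8.14, 8.49 and 8.36 in WS2 and 6.61, 7.05 and 7.16 in bri1-1D. The expansin EXPA8 read 7.83, 7.90 and 8.27 in WS2 and 6.91, 6.45 and 6.56 in bri1-1D. Neither gene overlapped between the groups, and the log2 differences were -1.39 ± 0.14 (limma adjusted p = 8.68e-06) and -1.36 ± 0.18 (1.13e-04). Such separation below WS2 held for 16.7% of all tested probe sets.

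ARL, an ARGOS-like promoter of cell expansion, read 8.22, 8.29 and 7.86 in WS2 and 7.0, 6.98 and 6.98 in bri1-1D. The β-tubulin gene TUB1 read 8.51, 8.79 and 8.40 in WS2 and 8.02, 7.65 and 7.87 in bri1-1D, and the homeobox gene HAT2 read 7.65, 7.89 and 7.95 in WS2 and 7.33, 7.37 and 7.37 in bri1-1D. All of these were below every WS2 array, as were 16.7% of all tested probe sets. Their log2 differences were -1.14 ± 0.10 for ARL, -0.72 ± 0.11 for TUB1 and -0.47 ± 0.11 for HAT2 (limma adjusted p = 3.58e-06, 3.34e-04 and 0.00712). The expansin EXPA4 was the member not called, with a difference of -0.00 ± 0.10. The count of 6 members called lower was the same under each of the 15 other settings tried.

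Of the 45 genes listed for brassinosteroid signalling, 3 were tested. BIM1, a bHLH partner of the BES1 factor, read 7.05, 6.80 and 6.94 in WS2 and 7.36, 7.32 and 7.28 in bri1-1D, with no overlap, as for 18.9% of all tested probe sets in that direction. Its log2 difference was 0.39 ± 0.11 (limma adjusted p = 0.0176), and the call was lost without WS2 replicate 2 or without bri1-1D replicate 1. The receptor homologue BRL1 (0.22 ± 0.12, adjusted p = 0.186) and TTL (0.14 ± 0.08, adjusted p = 0.222) did not pass the test. BRL1 read 3.76, 3.81 and 3.55 in WS2 and 3.75, 4.12 and 3.92 in bri1-1D, and its groups overlapped. No probe set of BRI1, BAK1 or BRS1, and none for the 8 listed biosynthesis genes, was named, so their levels are not analysed here.

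Cell wall genes moved in both directions. Among the xyloglucan endotransglucosylase/hydrolases, which cut and rejoin xyloglucan chains of the wall, 4 of 6 tested genes were lower and 0 were higher, against 10.3% lower and 10.4% higher over all tested probe sets, with a median log2 difference of -1.01. XTH16 read 6.75, 7.35 and 6.84 in WS2 and 5.21, 5.14 and 5.09 in bri1-1D, and XTH18 read 8.84, 8.81 and 9.15 in WS2 and 7.45, 7.05 and 7.37 in bri1-1D. Both were below every WS2 array, as were 16.7% of all tested probe sets. Their log2 differences were -1.84 ± 0.14 (limma adjusted p = 1.06e-06) and -1.64 ± 0.14 (1.87e-06). XTH33 was lower by -0.64 ± 0.13, while XTH20 (0.24 ± 0.11) and XTH32 (0.14 ± 0.10) were not called.

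The expansins, which loosen the wall without cutting it, were split. Of 14 tested genes, 4 were lower and 3 were higher, against 10.3% and 10.4% over all tested probe sets, with a median difference of -0.19. The lower genes were EXPA8, EXLA1 (-0.94 ± 0.21), EXLB1 (-0.63 ± 0.15) and EXPB1 (-0.55 ± 0.12), and the higher genes were EXPA15 (0.72 ± 0.12), EXPA20 (0.60 ± 0.10) and EXPA16 (0.58 ± 0.09). EXPA15 read 7.10, 7.13 and 7.35 in WS2 and 7.76, 8.03 and 7.96 in bri1-1D, a rise with no overlap, as for 18.9% of all tested probe sets. EXLA1, an expansin-like gene, read 8.61, 8.42 and 8.61 in WS2 and 7.83, 7.76 and 7.22 in bri1-1D. The opposite changes within the family were both called in the same fit, at limma adjusted p = 5.26e-04 for EXPA15 and 0.00608 for EXLA1.

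Among genes of cellulose and hemicellulose synthesis, 3 of 7 were lower and 0 higher, against 10.3% lower over all tested probe sets, with a median of -0.04. CSLA03, of the glucomannan synthase family, was lower by -0.94 ± 0.17 (limma adjusted p = 0.00124) and kept its call under every setting. CSLC04, a xyloglucan backbone synthase (-0.38 ± 0.11), and GAUT15 (-0.24 ± 0.07) lost theirs under 4 and 6 settings, so that 1 of the 7 genes was called without WS2 replicate 1, WS2 replicate 2 or bri1-1D replicate 3. Of 3 pectin genes, the pectin methylesterase ATPMEPCRB was lower by -1.09 ± 0.14 (adjusted p = 7.74e-05), with 8.43, 8.36 and 8.39 in WS2 and 7.64, 7.31 and 6.96 in bri1-1D. Of 7 tubulins, TUB1, TUB5 (-0.48 ± 0.13) and TUB7 (-0.31 ± 0.08) were lower, against the same 10.3%, and the other 4 were not called. TUB5 lost its call without WS2 replicate 2 or bri1-1D replicate 1.

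**Figure D2:**
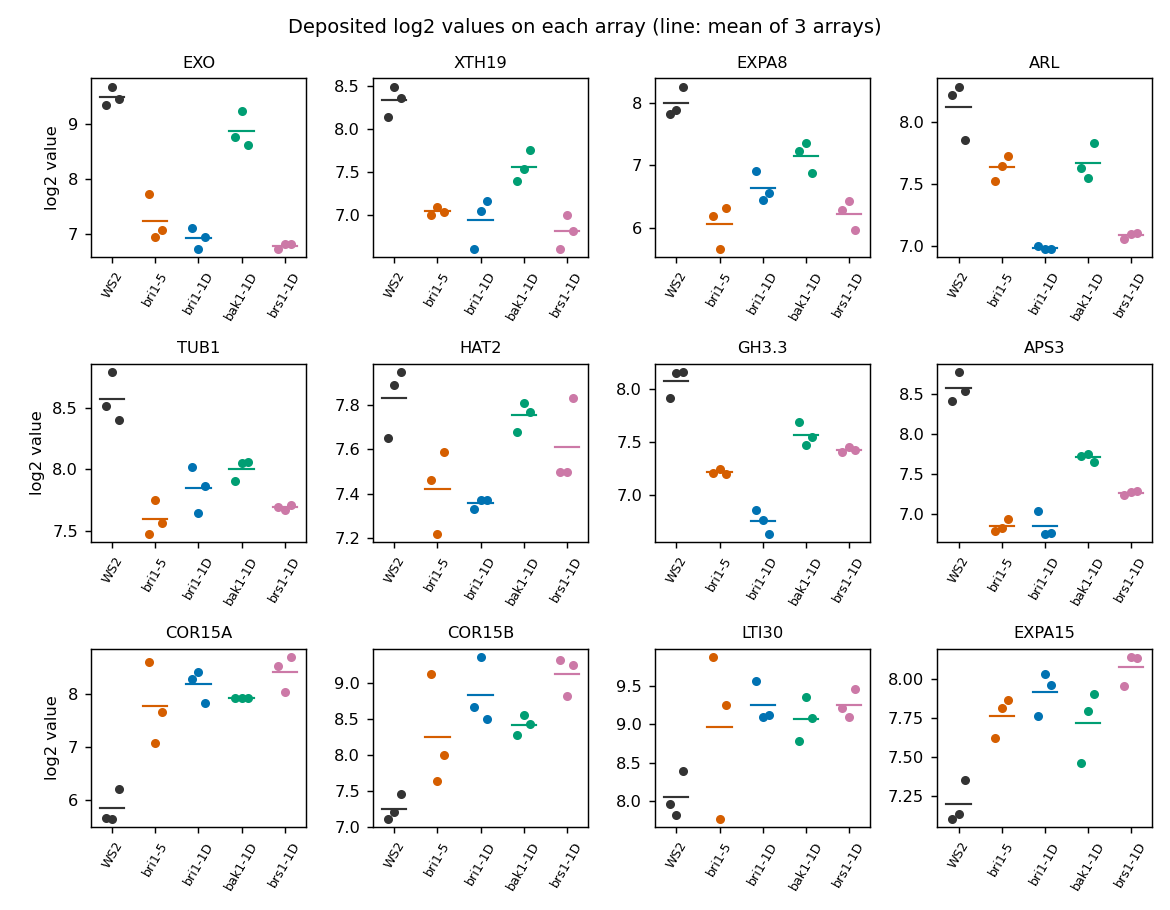
Deposited log2 values of 12 genes on all 15 arrays, with 1 point per array, a line at the mean of each genotype and a vertical axis scaled to each gene. EXO, XTH19, EXPA8, ARL, TUB1, HAT2, GH3.3 and APS3 lie lower in bri1-1D than in WS2 on every array, and COR15A, COR15B, LTI30 and EXPA15 lie higher. Of all tested probe sets, 16.7% lie below and 18.9% above WS2 in this way.

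Among auxin and gibberellin genes, GH3.3 fell and the tested gibberellin receptors rose by smaller amounts. GH3.3, which conjugates the auxin IAA to amino acids, read 7.91, 8.15 and 8.16 in WS2 and 6.86, 6.77 and 6.64 in bri1-1D. It was 2.50-fold lower without overlap (log2 difference -1.32 ± 0.09, limma adjusted p = 1.42e-07), and 16.7% of all tested probe sets lay below WS2 without overlap. Of the 8 auxin response genes tested, IAA29, an auxin-response repressor, was the other called lower (-0.41 ± 0.13, adjusted p = 0.032), and it lost its call without any 1 of 5 arrays. Over all tested probe sets 10.3% were called lower. The gibberellin receptors GID1A, GID1B and GID1C were all called higher, by 0.29 ± 0.09, 0.28 ± 0.09 and 0.34 ± 0.09, against 10.4% called higher over all tested probe sets. GID1A read 7.47, 7.62 and 7.38 in WS2 and 7.72, 7.94 and 7.69 in bri1-1D, and GID1C read 5.48, 5.53 and 5.52 and 5.73, 5.96 and 5.85. These differences are close to the threshold, and 0 of the 3 were called without bri1-1D replicate 2 and 1 of the 3 without WS2 replicate 1 or without WS2 replicate 3. With only the 6 arrays compared, 1 of the 3 was called. GID1B also lost its call with median centring, quantile normalization, array weights or no filter on low values. The median difference of the 3 receptor genes from WS2 was 0.29 in bri1-1D, 0.42 in bri1-5 and 0.22 in both bak1-1D and brs1-1D.

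Transcripts of cold and abscisic acid response were higher in bri1-1D. Of 4 tested genes of 23 listed, 3 were called higher and 0 lower, against 10.4% called higher over all tested probe sets, and the median difference was 1.39. The median differences of the other lines from WS2 were 0.95 in bri1-5, 1.09 in bak1-1D and 1.54 in brs1-1D. COR15A, a chloroplast protein that protects membranes in the cold, read 5.67, 5.65 and 6.22 in WS2 and 8.29, 8.42 and 7.84 in bri1-1D. Its log2 difference was 2.34 ± 0.28, or 5.05-fold (limma adjusted p = 4.14e-05). Its neighbour COR15B read 7.11, 7.20 and 7.45 in WS2 and 8.66, 9.36 and 8.49 in bri1-1D (1.59 ± 0.29, adjusted p = 0.0013). Neither gene overlapped between the groups, as for 18.9% of all tested probe sets in that direction. The 2 transcripts are similar, and cross-hybridisation of their probe sets was not tested.

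The dehydrin LTI30 read 7.96, 7.82 and 8.40 in WS2 and 9.56, 9.09 and 9.12 in bri1-1D (1.2 ± 0.35, limma adjusted p = 0.0252). Leaving out bri1-1D replicate 1, or replicate 1 or 2 of WS2, ended its call, and COR47 (0.47 ± 0.16, adjusted p = 0.0515) missed the threshold. PUB19, a U-box ubiquitin ligase of drought and abscisic acid response, was higher by 1.85 ± 0.37 (adjusted p = 0.00243). It read 6.27, 5.41 and 6.6 in WS2 and 8.25, 7.95 and 7.63 in bri1-1D.

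The other large rises were mostly genes with only a locus code. AT5G53710 read 4.87, 3.73 and 4.28 in WS2 and 7.23, 6.87 and 6.58 in bri1-1D, 6.04-fold higher (2.60 ± 0.27, limma adjusted p = 1.01e-05). AT4G28140 read 7.31, 6.24 and 7.54 in WS2 and 9.89, 9.58 and 9.27 in bri1-1D (2.55 ± 0.27, adjusted p = 1.41e-05). The 12 largest rises ran from 1.51 to 2.60, and 9 of them carry only a locus code. WS2 replicate 2 was the lowest WS2 array for 8 of these 12 genes. All 12 kept their call without that array, and its part in their size was not tested. They include AT1G20070 (2.20 ± 0.24), AT5G47330 (1.83 ± 0.20), AT1G47400 (1.64 ± 0.28), AT1G52770 (1.58 ± 0.14), AT5G01740 (1.56 ± 0.13), AT2G43620 (1.52 ± 0.23) and AT2G07240 (1.51 ± 0.11).

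The largest fall of a listed gene was that of AT1G14210, which read 8.10, 8.14 and 8.01 in WS2 and 5.21, 5.11 and 5.29 in bri1-1D. The difference of -2.88 ± 0.12 (7.34-fold, limma adjusted p = 3.60e-10) was many times the spread within either group. CML38, a calmodulin-like calcium sensor, read 8.44, 8.36 and 8.39 in WS2 and 6.96, 6.08 and 6.61 in bri1-1D (-1.85 ± 0.22, adjusted p = 3.97e-05). Of 6 calcium sensors tested, CML38, CML42 (-1.0 ± 0.15) and CML30 (-0.33) were lower and 0 were higher, against 10.3% lower over all tested probe sets, and CML30 lost its call under some settings. The 12 largest falls, from -1.55 to -2.88, also held AT5G28630 (-1.74 ± 0.22), AT1G02660 (-1.57 ± 0.23), AT5G39580 (-1.57 ± 0.26), AT4G27280 (-1.56 ± 0.24) and AT4G28085 (-1.55 ± 0.15).

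Metabolic genes among the largest falls were APL4 and APS3. APL4, a large subunit of the ADP-glucose pyrophosphorylase of starch synthesis, read 5.20, 5.39 and 5.43 in WS2 and 3.39, 3.59 and 3.53 in bri1-1D (-1.84 ± 0.10). It is 1 of 45 probe sets called lower with no bri1-1D array above the filter value of 4. No array of the other lines that carry bri1-5 was above 4 either, so APL4 passed the filter through the WS2 arrays alone. Its fall is therefore given as a description with no test, and its differences are limited by the low end of the scale. APS3, an ATP sulfurylase of sulfate assimilation, read 8.41, 8.78 and 8.54 in WS2 and 7.03, 6.75 and 6.76 in bri1-1D (-1.73 ± 0.10, limma adjusted p = 2.00e-08). Of 12 genes of sugar and starch metabolism, 3 were lower and 1 higher, against 10.3% and 10.4% over all tested probe sets, with a median of -0.17. The 3 lower genes include APL4, which entered through the WS2 arrays. The sugar transporter SWEET4 was the higher gene (0.77 ± 0.11), and SWEET16 (-0.50 ± 0.16) and SWEET11 (-0.29 ± 0.09) were lower with calls lost under some settings. Without WS2 replicate 3 or bri1-1D replicate 2, 2 of the 12 genes were called. Of 4 sulfur genes, the β-glucosidase BGLU28 was also lower (-0.64 ± 0.16), and its difference shrank to -0.17 and lost its call with low values raised to a floor of 4.

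Defence genes showed no common direction. Of 3 genes of pattern-triggered immunity, the receptor EFR was higher (0.69 ± 0.15, limma adjusted p = 0.00489) and the transcription factor WRKY22 was lower (-0.69 ± 0.18, adjusted p = 0.0111). Leaving out bri1-1D replicate 3, or replicate 2 or 3 of WS2, ended the call of WRKY22. The thionin THI2.1 was lower (-1.20 ± 0.17), and with values floored at 4 its difference was -0.50. Of 4 jacalin lectins, JAL23 (-1.27 ± 0.27) and JAL22 (-0.27) were lower, against 10.3% called lower over all tested probe sets, and JAL22 lost its call under 6 settings. None of the 3 salicylic acid genes tested was called, with differences from -0.19 to 0.19. In the light-harvesting and photosystem list, LHCB4.2 (-0.53 ± 0.12) and LHCB4.3 (-0.38 ± 0.09) were lower among 8 nuclear genes, against the same 10.3%, and the median was -0.13.

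Across the 54 lists, 285 member genes were tested, and 27.7% of them were called, 20 higher and 59 lower, against 20.7% of all tested probe sets. The lists were chosen with earlier results of these data known, so the larger share describes that choice as well as the genes. In 29 lists at least 3 genes were tested, in 11 lists 1 or 2, and in 14 lists none. The enzyme families with more members were mixed, while over all tested probe sets 10.4% were called higher and 10.3% lower. Of 35 UDP-glycosyltransferases 3 were higher and 2 lower (median 0.11), of 14 cytochromes P450 2 were higher and 4 lower (median -0.17), and of 12 glutathione transferases 1 was higher and 3 lower (median -0.23). Of 16 serine carboxypeptidase-like genes, the family of BRS1, 4 were lower and 0 higher (median -0.08), the largest being SCPL34 (-0.66 ± 0.13). The glycosyltransferase count fell from 5 to 3 without WS2 replicate 1 or WS2 replicate 2. UGT84A1, 1 of the 3 higher glycosyltransferases, shrank from 0.44 to 0.05 and lost its call with low values raised to a floor of 4. Members of these families lie in groups of similar sequence, and whether their probe sets cross-hybridise was not tested.

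**Figure D3:**
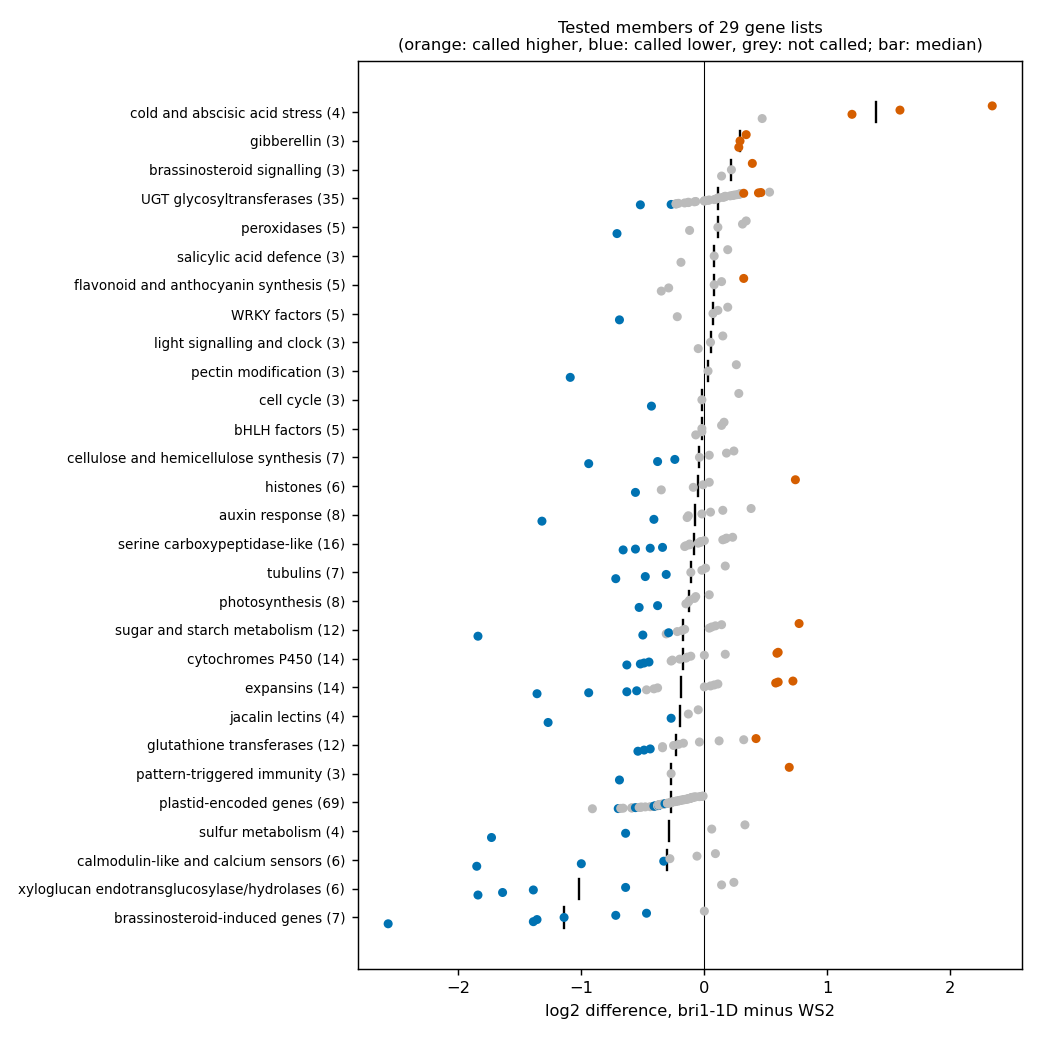
Log2 differences of bri1-1D minus WS2 for the tested members of the 29 lists with at least 3 tested genes, 1 point per gene, with the number tested in brackets and a black bar at the list's median. Orange and blue points passed an adjusted p of 0.05; the brassinosteroid-induced genes (median -1.14) and the cold and abscisic acid genes (median 1.39) lie at opposite ends.

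The values of the plastid-encoded genes rested in large part on a single array. All 69 tested genes lay below 0, with a median of -0.27, and 8 were called lower and 0 higher. These 8 are 11.6% of the 69, near the 10.3% called lower over all tested probe sets. The mean log2 value over these genes was 9.79, 9.86 and 9.92 in WS2 and 9.78, 9.82 and 9.10 in bri1-1D, so bri1-1D replicate 3 lay lower than the other 5 arrays. Replicate 3 was also the lowest array of bak1-1D (9.25), of brs1-1D (9.20) and, by little, of bri1-5 (9.64), but the highest of WS2. Whether the low values follow the replicate number was not tested. Without bri1-1D replicate 3 the median was -0.06, with 2 genes called. Counts were also 2 without WS2 replicate 2 or WS2 replicate 3 and 4 without bri1-1D replicate 1.

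**Figure D4:**
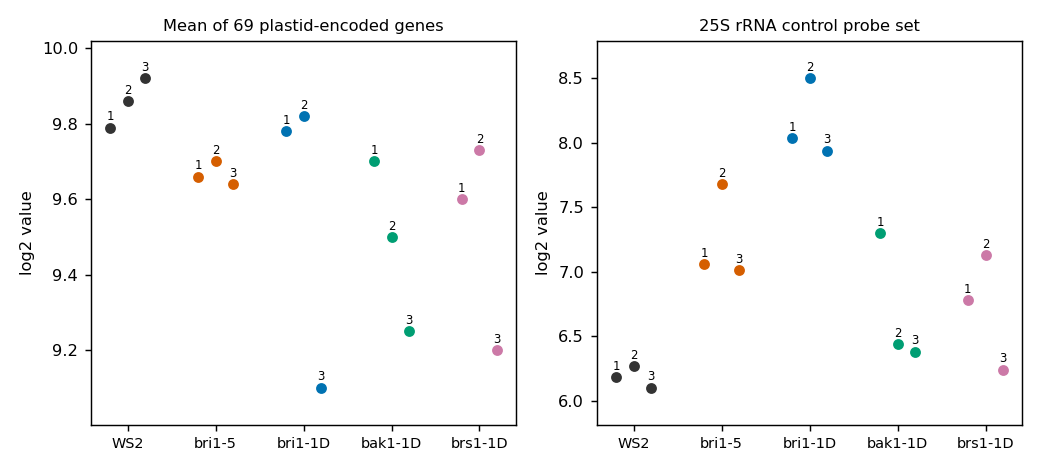
Deposited log2 values on each of the 15 arrays, numbered by replicate, for the mean of 69 plastid-encoded genes (left) and for the control probe set of 25S ribosomal RNA (right). Replicate 3 of bri1-1D stands at 9.10 in the left panel, and the 3 bri1-1D arrays stand at 7.94 to 8.50 in the right panel, above WS2 at 6.10 to 6.27.

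Whether the differences from WS2 set bri1-1D apart from its parent was tested by comparing bri1-1D with bri1-5 directly. That comparison called 39 probe sets (0.245%), 11 higher (0.0691%) and 28 lower (0.176%) in bri1-1D, and 1593 had an unadjusted p under 0.05. The count was 6 without bri1-5 replicate 3, 19 without bri1-5 replicate 1, 16 without bri1-1D replicate 3 and 6 when the fit held the 6 compared arrays alone. None of the 12 largest rises or 12 largest falls against WS2 was called against bri1-5. For EXO the difference of bri1-1D from bri1-5 was -0.31 ± 0.18 (limma adjusted p = 0.597), for COR15A it was 0.40 ± 0.28 (0.686), and for AT1G14210 it was -0.05 ± 0.12 (0.935). A p that misses the threshold does not show that the 2 lines were alike.

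ARL and GH3.3 were lower in bri1-1D than in its parent as well as in WS2. ARL differed from bri1-5 by -0.65 ± 0.10 (limma adjusted p = 0.0127) and GH3.3 by -0.46 ± 0.09 (adjusted p = 0.0357). These calls belong to a comparison whose count fell from 39 to 6 when the fit held the 6 compared arrays alone. For both genes bri1-5 itself was below WS2, by -0.49 ± 0.10 and -0.86 ± 0.09. Of the probe sets with a single listed gene, the largest rises over bri1-5 were AT2G22200 (0.73 ± 0.13), AT3G16560 (0.52 ± 0.10) and AT2G41190 (0.50 ± 0.09), and the largest falls were AT4G19430 (-0.88 ± 0.13), AT4G19530 (-0.87 ± 0.13) and AT5G57760 (-0.77 ± 0.13). Each of these 6 lost its call when the fit held the 6 compared arrays alone. AT4G19430 read 9.30, 9.44 and 9.52 in WS2 and 9.11, 8.43 and 8.78 in bri1-1D, below WS2 by -0.65 ± 0.13, while bri1-5 differed from WS2 by 0.24 ± 0.13 (adjusted p = 0.244).

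A pair of probe sets with no listed gene was chosen for being higher in bri1-1D than in each of the other genotypes, so their values are a description with no test. Probe set 252890_at read 8.58, 8.94 and 8.78 in WS2 and 9.78, 10.00 and 9.91 in bri1-1D, a difference of 1.13 ± 0.11. Probe set 252891_at read 3.69, 3.66 and 3.87 in WS2 and 4.66, 5.00 and 5.02 in bri1-1D (1.15 ± 0.10). No WS2 or bak1-1D array was above 4 for 252891_at, whose differences are limited by the low end of the scale. Both were 0.92 higher than in bri1-5, and the bri1-5 values differed from WS2 by 0.21 ± 0.11 and 0.23 ± 0.10. Around the BRI1 locus, 5 tested genes on each side in the gene order of the RefSeq table gave 0 calls against WS2, with differences from -0.13 to 0.24 and a lowest limma adjusted p of 0.0755 (unadjusted 0.0187). These genes lay 2 to 11 genes before and 3 to 14 genes after BRI1, so BRI1 and the genes directly beside it were not covered. Probe sets with no listed gene, such as 252890_at and 252891_at, were not placed in this order.

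By the number of probe sets called, bak1-1D was the line other than WS2 that differed most from bri1-1D. The direct comparison called 1611 probe sets (10.1%), 680 higher (4.27%) and 931 lower (5.85%) in bri1-1D, and 109 of them (0.685%) at 2-fold or more, of which 91 were lower. The count was 909 without bak1-1D replicate 2, 984 without bak1-1D replicate 3 and 1033 without bri1-1D replicate 3. EXO was lower in bri1-1D than in bak1-1D by -1.95 ± 0.18 (limma adjusted p = 1.23e-05), XTH18 by -1.44 ± 0.14 (1.73e-05), ATPMEPCRB by -1.57 ± 0.14 (9.23e-06) and CML38 by -1.25 ± 0.22 (0.00193). Of the 7 brassinosteroid-induced genes, 4 were lower in bri1-1D than in bak1-1D: EXO, XTH19 (-0.62 ± 0.14), ARL (-0.68 ± 0.10) and HAT2 (-0.40 ± 0.11). The cold genes did not pass this test, with a COR15A difference of 0.25 ± 0.28 (adjusted p = 0.611). Other large differences were AT1G07050 (1.44 ± 0.23), AT4G34950 (1.42 ± 0.12), AT2G20670 (-1.65 ± 0.23) and AT3G55840 (-1.58 ± 0.29).

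Against brs1-1D 346 probe sets were called (2.17%), 133 higher (0.836%) and 213 lower (1.34%) in bri1-1D, and the count ranged from 81 without bri1-1D replicate 3 to 418 without bri1-1D replicate 1. It was 148, 161 and 210 without brs1-1D replicates 3, 1 and 2, and 224 without bri1-1D replicate 2. None of the 12 largest rises against WS2 was called in this comparison, and of the 12 falls APS3 was lower in bri1-1D by -0.41 ± 0.10 (limma adjusted p = 0.0375). GH3.3 was lower by -0.67 ± 0.09 (9.05e-04). The anthocyanin enzyme DFR was lower by -0.98 ± 0.17 (0.00847), a call lost without bri1-1D replicate 3. The largest rises were AT4G30620 (1.24 ± 0.14), AT3G28320 (1.22 ± 0.21) and AT4G28703 (1.16 ± 0.16), whose differences from WS2 were -0.07 ± 0.14, -0.07 ± 0.21 and 0.20 ± 0.16.

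Side by side, the differences of each line from WS2, which share the WS2 arrays, fell into several patterns. AT1G14210 was below WS2 by -2.88 in bri1-1D, -2.83 in bri1-5, -2.83 in bak1-1D and -3.05 in brs1-1D. Probe set 245501_at, with no listed gene, was above WS2 by 3.49, 3.56, 3.81 and 3.59 in the same order. Its WS2 values were all below 4, so it passed the filter through the mutant lines and the size of its rise is limited by the low end of the scale. For EXO the differences were -2.57 in bri1-1D, -2.26 in bri1-5, -0.62 in bak1-1D and -2.71 in brs1-1D, so bak1-1D was nearer to WS2. For the 7 brassinosteroid-induced genes the median differences were -1.14, -0.97, -0.56 and -1.03. For EXLA1 they were -0.94 in bri1-1D and 0.09, 0.27 and -0.18 in the others, and bri1-1D was called lower than bak1-1D (-1.22 ± 0.21, limma adjusted p = 0.00188) but not than bri1-5 (-1.04 ± 0.21, 0.0645) or brs1-1D (-0.76 ± 0.21, 0.0764).

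**Figure D5:**
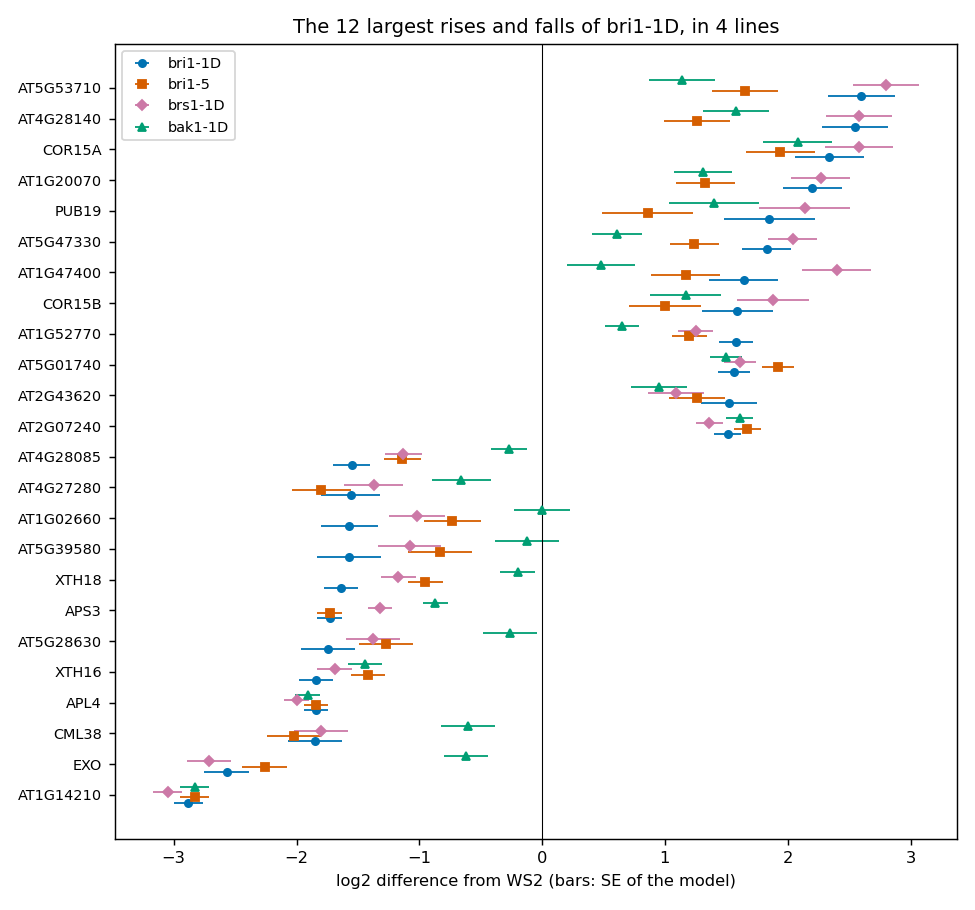
Log2 differences from WS2 of the 12 genes with the largest rises and the 12 with the largest falls in bri1-1D, for the 4 lines that carry bri1-5, with bars for the SE of the model. The genes were chosen on the bri1-1D values and all 4 lines share the WS2 arrays; AT1G14210 lies at similar values in all 4 lines, APL4 has no array above 4 in any of them, and EXO, CML38 and XTH18 lie nearer to 0 in bak1-1D.

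Of the 6937 tested probe sets without a listed gene, 1507 were called (21.7%), near the 20.7% over all tested probe sets. The largest rises after 245501_at were 262135_at (2.40 ± 0.11), 265418_at (2.23 ± 0.23) and 255250_at (1.93 ± 0.29), and the largest falls were 247925_at (-3.05 ± 0.29), 245757_at (-2.90 ± 0.21), 260856_at (-2.66 ± 0.19) and 247949_at (-1.86 ± 0.17). 247925_at read 10.14, 10.71 and 10.55 in WS2 and 7.99, 6.92 and 7.35 in bri1-1D, an 8.26-fold fall without overlap. 245501_at read 3.05, 3.24 and 3.00 in WS2 and 6.63, 6.69 and 6.46 in bri1-1D. Over all tested probe sets, every bri1-1D array was above every WS2 array for 3013 (18.9%) and below for 2661 (16.7%).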

How the data were processed

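The authors deposited 1 log2 expression value per probe set and array, normalized with GCRMA per the submitters' processing notes; its version and settings are not given in the sources used. Probe sets were named from the platform annotation, with symbols updated through the RefSeq table of TAIR10.1 for 13436 of 13513 probe sets with 1 listed gene; probe sets with several genes were not named. The deposited values were used without further scaling. limma 3.58.1 in R 4.3.3 fitted 1 mean per genotype to all 15 arrays (lmFit, eBayes without trend), with Benjamini-Hochberg adjustment over 15912 probe sets and calls at an adjusted p under 0.05. The procedure was tested on simulated data.

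Named genes were the 12 largest called rises and falls against WS2, up to 4 called members of each list, the 3 largest called rises and falls against each other line, and the 4 largest rises and falls with no listed gene. Other tested list members are given with their values. The members and lists were chosen with earlier results of these data known. The plastid and mitochondrial lists, a correction to the starch list (ATP sulfurylases removed) and the symbol families were set after values were seen. Alternatives covered the replicate block, the arrays in the fit, scaling, filters, a floor at 4, a variance trend, array weights and each array left out. No value column lacked a sample.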

Additional observations from a re-analysis of the deposited data

Results flagged for a closer look

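A signal appeared in a control that the comparisons left out. The control probe set of 25S ribosomal RNA was higher in bri1-1D than in WS2, by 1.97 ± 0.28 on the log2 scale (limma adjusted p over the 64 controls = 5.37e-04), with 7.94 to 8.50 on the bri1-1D arrays and 6.10 to 6.27 on the WS2 arrays. It read 7.01 to 7.68 in bri1-5, 6.38 to 7.30 in bak1-1D and 6.24 to 7.13 in brs1-1D. The part of ribosomal RNA content in the differences between the lines was not tested.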

How the results depend on the processing

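The count of 3300 probe sets called against WS2 ranged from 2345 (only the 6 arrays compared) to 3770 (replicate block) across 9 settings, and from 2246 to 2721 with 1 array left out. Centring each array on its median moved the split from 1656 higher and 1644 lower to 1442 and 1825. The 79 called list members ranged from 61 to 94, and from 57 to 75 with 1 array left out. Of 108 named probe sets, 79 kept direction and call under all 15 settings, 29 changed side of the threshold under at least 1, and 0 reversed. Counts against the other lines were less stable. With only the 6 arrays compared they were 6 against bri1-5, 1071 against bak1-1D and 136 against brs1-1D, and with array weights they were 61 against bri1-5 and 196 against brs1-1D. With 1 array left out they ranged from 6 to 33, from 909 to 1258 and from 81 to 418. The fits with arrays left out held fewer arrays, while the fit with array weights held all 15 arrays. The cause of these shifts was not tested.

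The labels do not say that replicate numbers mark a shared batch, so the numbers were not taken as pairs. Deviations from the group mean of same-numbered bri1-1D and WS2 arrays correlated at 0.344, 0.259 and 0.077. Between differently numbered arrays the correlations ran from -0.314 to 0.088, the highest for bri1-1D replicate 3 with WS2 replicate 2. Whether the numbers mark a shared batch was not tested. With the replicate block the counts were 3770 against WS2, 27 against bri1-5, 2016 against bak1-1D, 496 against brs1-1D and 94 list members, and 14 plastid genes were called in place of 8. The planned promoter motif search was not run. Values near 4 lie at the low end of the signal range and limit the genes named there.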

Other observations

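Families grouped by gene symbol, a rule set after values were seen, added groups outside the lists. Of 7 tested RALF-like peptides, small secreted signals that alkalinise the wall space, 3 were lower in bri1-1D and 1 was higher. RALFL33 read 9.81, 10.12 and 10.12 in WS2 and 8.81, 8.62 and 8.81 in bri1-1D (-1.27 ± 0.13, limma adjusted p = 1.16e-05), RALFL22 was lower by -0.82 ± 0.10 and RALFL24 by -0.53 ± 0.10, and RALFL32 was higher by 0.34 ± 0.09. THE1, a receptor kinase of cell wall integrity sensing that is in no list and was picked after its value was seen, was lower by -0.68 ± 0.11 (limma adjusted p = 7.40e-04). Of 16 TBL genes, a family of wall polysaccharide acetylation, 4 were lower and 2 higher, led by TBL45 (-0.95 ± 0.12). Of 7 tetraspanins 3 were lower, led by TET8 (-0.81 ± 0.11), and of 5 glutamate receptor-like channels 2 were higher, led by GLR2.7 (1.03 ± 0.16). In the same comparison 10.4% of all tested probe sets were higher and 10.3% lower.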
